A study of Mus musculus with 13 samples.

Results

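The synaptic vesicle and exocytosis genes of mouse sciatic nerve were taken as a list of 47 gene symbols that cover the machinery of regulated secretion, and 43 of them had a probe set among the 15437 genes measured. Syt7, Rims1, Unc13a and Pcsk2 were not analysed here. The levels are log2 expression values from 1-colour Affymetrix arrays, so a difference of 1 is a doubling, and every level and difference below is on that scale. The arrays came from BKS mice at 24 weeks of age and asked which transcripts differ with the db mutation of the leptin receptor. There were 6 arrays of homozygous db/db nerve (samples 110, 111, 112, 409, 410 and 411), the obese and diabetic animals, and 7 of heterozygous db/+ nerve (samples 101, 103, 104, 105, 106, 404 and 407), which carry 1 mutant allele and serve as the control. Every mouse thus carries the db allele on the BKS strain, and no wild-type nerve is in the set.

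Regulated secretion works through vesicles that are filled, brought to the plasma membrane, primed and fused when calcium enters the cell. Fusion is driven by SNARE proteins that zip together across the 2 membranes, and synaptotagmins sense the calcium. Small clear vesicles carry transmitters such as glutamate, whereas dense-core granules carry peptides made from precursor proteins. The cell bodies of sensory and motor neurons lie outside the sciatic nerve, which holds their axons with Schwann cells, fibroblasts, blood vessels, immune cells and fat, so that most neuronal mRNA in nerve is the small amount present in axons. Many of the listed genes are also transcribed in Schwann, endocrine, fat or immune cells at some level.

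The db/+ arrays were not alike for these genes. In earlier work on the same data, db/+ 101, 103, 104 and 106 had been set apart for their high neuronal transcripts. That split was chosen from the values, so the gap between the db/+ arrays is given as a description with no test, and db/db was compared both with all 7 db/+ arrays and with db/+ 105, 404 and 407 alone. The mean over the 43 members lay between 6.84 and 7.22 on the db/db arrays, between 7.23 and 7.59 on db/+ 105, 404 and 407, and between 9.66 and 10.32 on db/+ 101, 103, 104 and 106. In 34 of the 43 members the 4 high db/+ arrays lay above all 9 other arrays, as did 8.45% of all genes, and in 36 they lay above the other 3 db/+ arrays, as did 12.1% of all genes. The median gap between those 4 arrays and the other 3 db/+ arrays was 2.61 over the members and -0.14 over all genes. It was widest for Scg2 (7.08), Slc17a6 (6.13), Chgb (4.97) and Snap91 (4.84), and it was close to 0 for Vamp3 (-0.09), Rab3b (-0.09) and Dnm1 (-0.06).

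**Figure D1:**
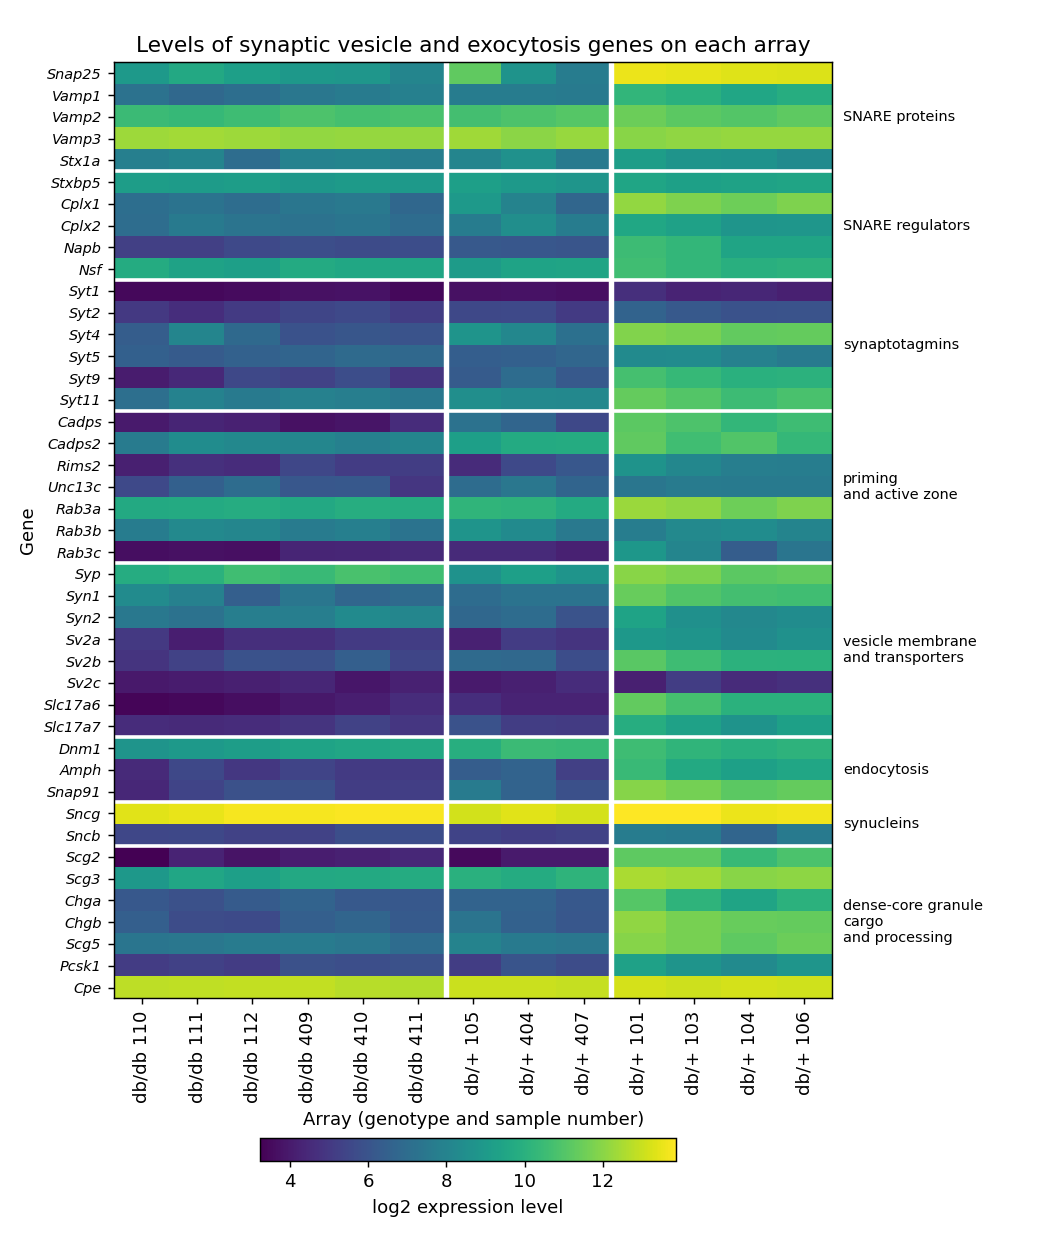
Log2 expression level (colour) of the 43 measured members (down the page, by functional group) on each of the 13 arrays (across), with db/db at the left, db/+ 105, 404 and 407 in the middle and db/+ 101, 103, 104 and 106 at the right. In 34 members the 4 arrays at the right lie above all others, while Vamp3, Rab3b and Dnm1 show no such step.

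Markers of sensory neurons moved with the members across the arrays. The mean of 16 measured sensory neuron markers, which include neurofilaments, sodium channels and the transcription factor Isl1, was 5.82 to 6.51 on the db/db arrays, 6.76 to 7.30 on db/+ 105, 404 and 407 and 10.71 to 11.43 on the 4 other db/+ arrays. Of those 16 markers, 14 were lower in db/db than in all db/+ nerve and 5 were lower in db/db than in db/+ 105, 404 and 407 (Tubb3, Isl1, Rbfox3, Elavl4 and Uchl1), while 0 were higher in either. The mean of 5 measured autonomic and motor neuron markers was 5.28 to 5.54 on the db/db arrays. It was 4.94 to 5.05 on db/+ 105, 404 and 407 and 5.32 to 5.71 on the other 4. Against db/+ 105, 404 and 407, Slc5a7 was higher by 3.77 (limma adjusted p = 4.92e-06). Slc6a2 was lower by 1.80 (limma adjusted p = 0.000865). Both also passed against all db/+ arrays, in the same direction, and the other 3, Th, Dbh and Phox2a, passed neither. Th was at 4.21 to 5.14 in db/db, 4.23 to 5.16 on db/+ 105, 404 and 407 and 7.155 to 9.02 on the other 4. The gap between the db/+ sets was 3.16 for Th, -0.18 for Dbh and -0.08 for Phox2a. Satellite glia markers, genes of the glial cells around neuronal cell bodies, were at 9.46 to 10.19 in db/db, 9.62 to 9.92 in db/+ 105, 404 and 407 and 11.21 to 11.60 in the other db/+ arrays. The gap between the db/+ sets came from 2 of these 5 markers, Fabp7 (5.06) and Kcnj10 (3.42), while Glul, Slc1a3 and Gja1 differed by -0.05, -0.05 and -0.04. Adipocyte markers ran the other way, at 13.14 to 13.27 in db/db, 12.53 to 12.93 in db/+ 105, 404 and 407 and 11.98 to 12.76 in the other 4. Macrophage markers were at 11.45 to 11.93, 11.21 to 11.90 and 10.85 to 11.08 in the same order, and myelinating Schwann cell markers at 9.99 to 11.24, 10.71 to 11.38 and 11.34 to 11.86. Of the 7 measured Schwann cell markers, 4 (Mag, Drp2, Sox10 and S100b) were lower in db/db against all db/+ arrays. Against db/+ 105, 404 and 407, 0 of the 7 passed. The myelin genes Mbp and Pmp22 passed neither comparison and lay between 12.90 and 13.98 on every array. Fibroblast means were 12.52 to 12.79 in db/db, 12.95 to 13.04 in db/+ 105, 404 and 407 and 12.46 to 12.76 in the other 4. Mast cell means were 8.98 to 9.90, 9.96 to 10.83 and 9.63 to 9.92 in the same order. Endothelial means were 9.65 to 9.79, 9.49 to 10.15 and 9.63 to 9.93. Skeletal muscle means were 6.32 to 11.63, 7.56 to 10.99 and 6.53 to 11.83. The part of these markers in the members' differences was not tested. In whole nerve, fewer cells of a type and less RNA per cell cannot be told apart.

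**Figure D2:**
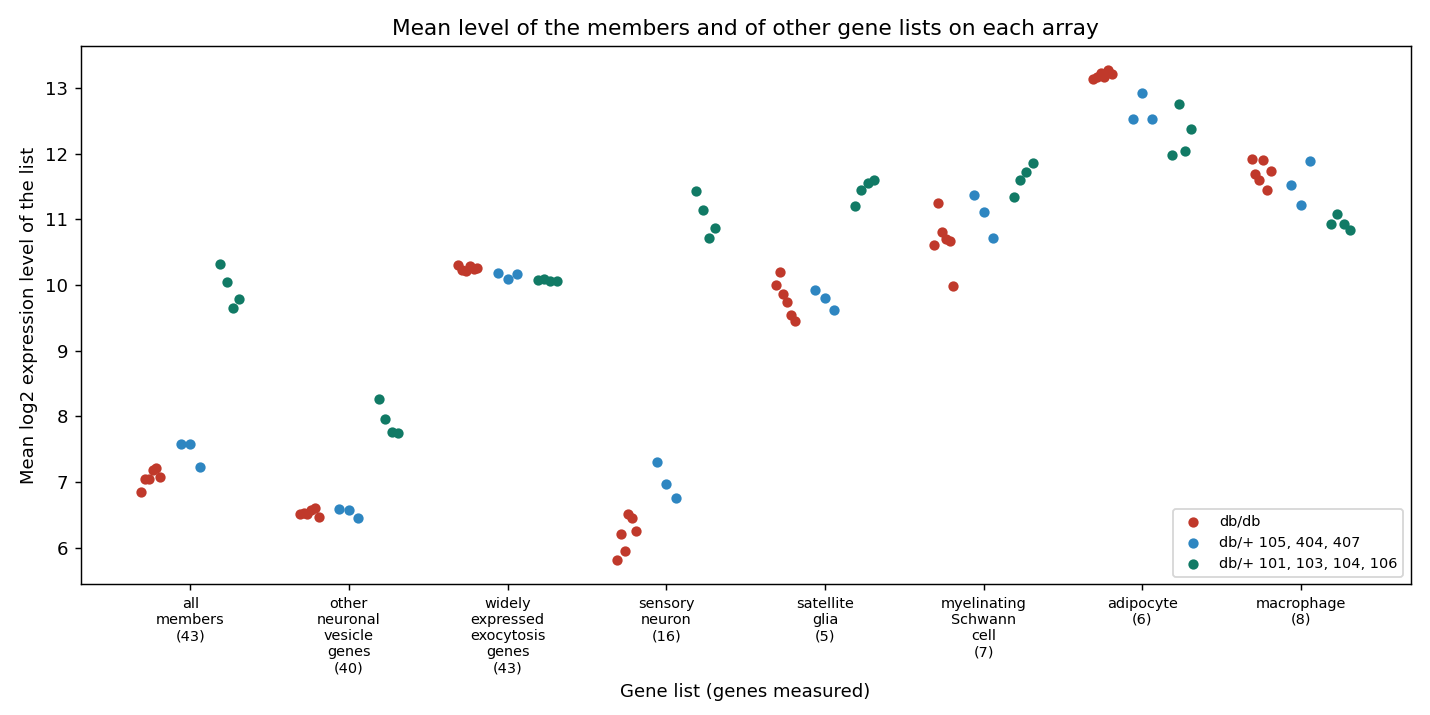
Mean log2 expression level (vertical axis) of the 43 members, of 2 further lists of vesicle and exocytosis genes and of 5 sets of cell type markers (along the horizontal axis, number of genes measured in brackets), with 1 point per array. For the members and for the sensory neuron markers the 4 db/+ arrays 101, 103, 104 and 106 stand well above the other 9, whereas the widely expressed exocytosis genes lie between 10.06 and 10.30 on all arrays.

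The median level per array was 8.63 to 8.71, and any 2 arrays correlated at 0.894 to 0.989 over all genes. The difference between the 3' and 5' actin control probe sets, which grows as RNA is more degraded, was 0.485 to 0.916 in db/db, 0.399 to 1.144 in db/+ 105, 404 and 407 and 0.963 to 1.395 in the other db/+ arrays, and its part in the results was not tested. The labels do not say that each sample is a separate animal, so the p-values measure the spread between these samples. Lepr, the mutated gene, was 5.85 to 6.56 in db/db and 6.78 to 8.98 in db/+ nerve and fell by 1.42 on the log2 scale (limma, Benjamini-Hochberg adjusted p = 0.00659), although its probe set need not lie in the altered part.

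Against all 7 db/+ arrays, db/db nerve had lower levels of 29 of the 43 members and higher levels of 0 by limma with Benjamini-Hochberg adjustment over all genes at 0.05. Over all genes 25.1% passed, 11.7% lower and 13.4% higher in db/db. The median difference, db/db minus db/+, was -1.93 over the members and 0.02 over all genes. Leaving out 1 array at a time gave between 16 and 33 members, with 17 without db/+ 103, 104 or 106, 18 without db/db 111 or 112 and 16 without db/db 110. Of the 14 members that did not pass by limma, Snap25 (-2.68, SE 0.95, adjusted p = 0.0554) and Scg2 (-3.89, SE 1.43, adjusted p = 0.0628) had large differences with wide errors. All 6 db/db arrays lay below all 7 db/+ arrays in 9 members (Cplx2, Napb, Syt9, Syt11, Cadps, Cadps2, Dnm1, Scg3 and Cpe), where 3.51% of all genes did, and above them in 0, where 6.17% of all genes did.

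Without db/+ 101, 103, 104 and 106, 9 of the 43 members differed between db/db and db/+ nerve, 6 of them lower and 3 higher, where 12.9% of all genes passed, 6.78% lower and 6.12% higher. The lower ones were Cadps, Cadps2, Syt9, Syt11, Napb and Dnm1, and the higher ones were Syp, Syn2 and Sncg. The share of members called lower (14.0%) was about double the background and that called higher (6.98%) was near it. The median difference was -0.33 over the members and -0.05 over all genes, and 32 of the 43 had a negative sign. The same 9 members as above lay below db/+ 105, 404 and 407 on every db/db array (9.99% of all genes), and Syp, Syn2 and Sncg lay above (8.98% of all genes). All 6 lower members were also lower against all db/+ arrays, as were 4.11% of all genes in both comparisons. The 23 other members that were lower against all db/+ arrays did not pass. The 3 db/+ arrays kept are those with low neuronal transcripts, so this comparison is given as the genotype difference without the 4 arrays. It gave 5 members without db/+ 105 and 4 without db/+ 404.

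Sample numbers fall into 2 runs, 101 to 112 and 404 to 411, whose meaning is not stated, and each holds both genotypes. The 4 high db/+ arrays all belong to the lower run, so arrays 404 to 411 compare 3 db/db with 2 db/+ arrays with none picked by its values. In them 4 members were lower (Cadps, Cadps2, Syt4 and Dnm1) and 1 was higher (Syp), where 9.1% of all genes passed, 4.17% lower and 4.93% higher. Within arrays 101 to 112, 26 members were lower and 0 higher, where 18.5% of all genes passed, 8.67% lower and 9.85% higher, and the median difference over the members was -2.54 there against -0.15 in arrays 404 to 411. With the run of numbers as a block, 25 members were lower and 0 higher, where 27.4% of all genes passed, 12.9% lower and 14.5% higher. An interaction of genotype and run in limma passed for 0 of the 15437 genes, the smallest adjusted p among members being 0.194. Its unadjusted p was under 0.05 for 27 members and for 15.3% of all genes.

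**Figure D3:**
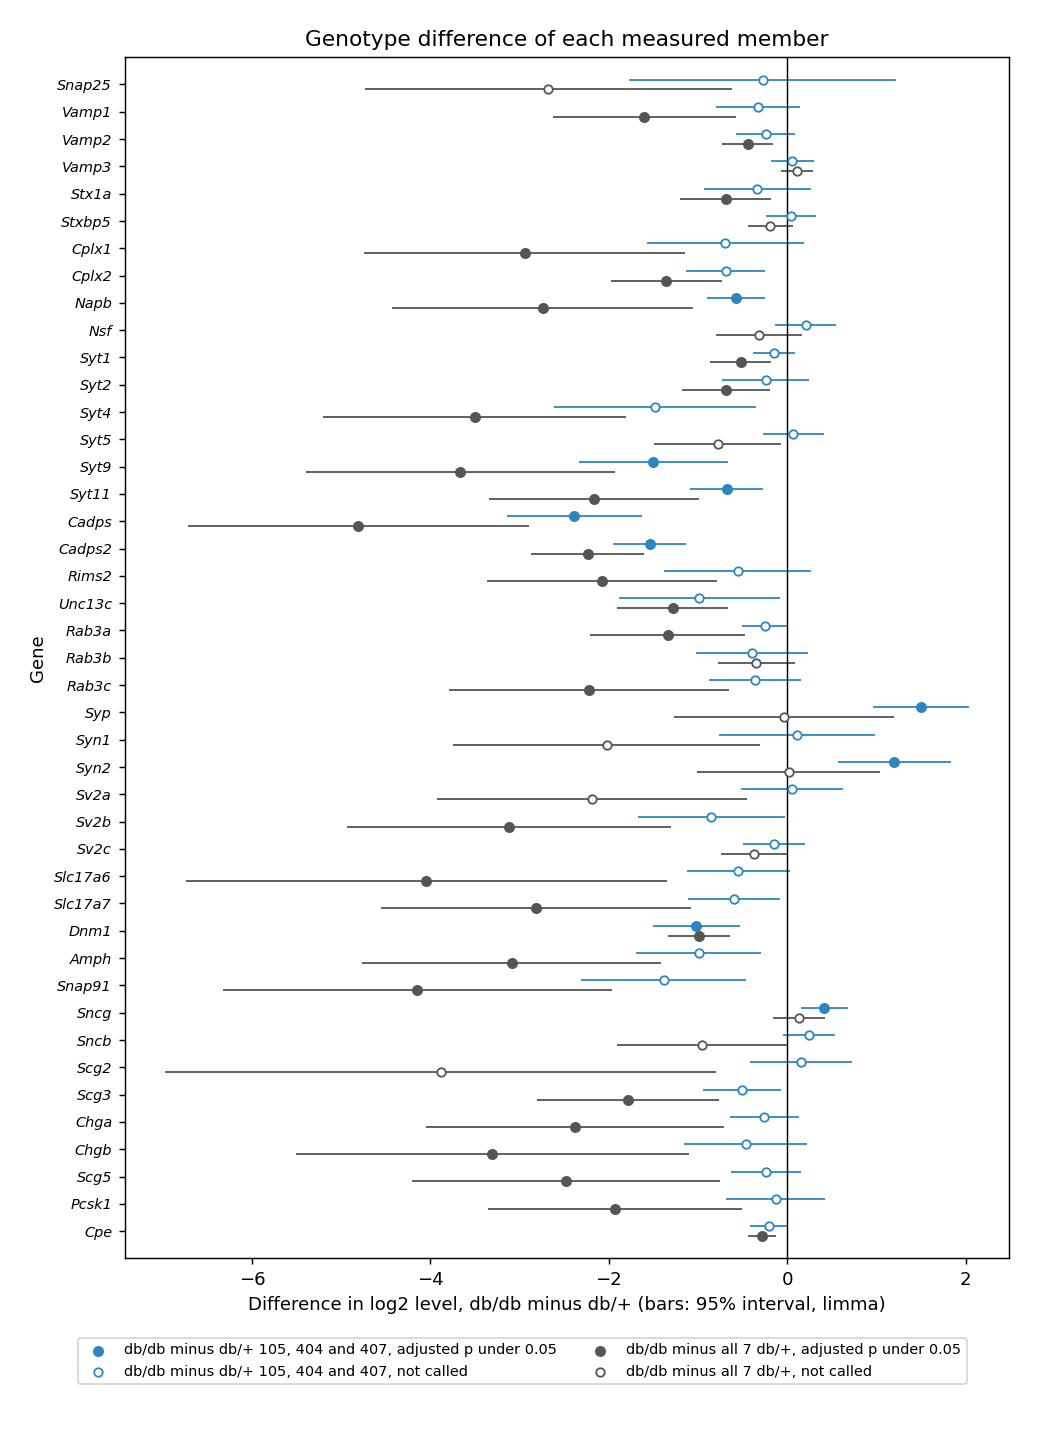
Difference in log2 level, db/db minus db/+ (horizontal axis), of each of the 43 members (down the page) against db/+ 105, 404 and 407 (blue) and against all 7 db/+ arrays (grey), with 95% intervals from limma and filled points where the Benjamini-Hochberg adjusted p is under 0.05. Most grey points lie left of 0 with wide intervals, and the filled blue points are Cadps, Cadps2, Syt9, Syt11, Napb and Dnm1 below 0 and Syp, Syn2 and Sncg above it.

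In the priming group Cadps and Cadps2 were lower in db/db whichever db/+ arrays were used. They encode the CAPS proteins, which prime dense-core granules for fusion. Cadps had levels of 3.70, 4.12 and 4.57 (lowest, median and highest) on the 6 db/db arrays, against 7.26, 6.70 and 5.56 on db/+ 105, 404 and 407 and 11.20, 10.91, 10.30 and 10.56 on db/+ 101, 103, 104 and 106. The genotypes did not overlap, and the 2 sets of db/+ arrays did not overlap either. Cadps was lower by 4.81 (SE 0.88, limma adjusted p = 0.00223) against all db/+ arrays. Its difference was -2.39 (SE 0.336, 95% interval -3.14 to -1.63, limma adjusted p = 0.00264) without the 4 arrays, a 5.23-fold lower level, and -2.09 (limma adjusted p = 0.0473) in arrays 404 to 411. The db/db levels of Cadps lay near the bottom of the range of the table. Such levels cannot be told from background without detection calls, so the size of the fold is uncertain. Cadps2 had levels of 7.66, 8.10 and 8.40 on the db/db arrays, against 9.24, 9.74 and 9.79 on db/+ 105, 404 and 407 and 11.28, 10.63, 11.001 and 10.34 on db/+ 101, 103, 104 and 106. Again every db/db array lay below every db/+ array. The difference was -2.24 (SE 0.29, limma adjusted p = 0.000218) against all db/+ arrays, -1.54 (SE 0.183, limma adjusted p = 0.00128) without the 4 arrays and -1.75 (limma adjusted p = 0.00741) in arrays 404 to 411. Both genes kept their call, in the same direction, under each of the 17 other settings run for the 9 arrays.

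Of the other priming and active zone members, none passed without the 4 arrays. Rims2 and Unc13c, which encode an active zone scaffold and a Munc13 priming factor, had differences of -2.08 and -1.28 against all db/+ arrays, both past the threshold (limma adjusted p = 0.0243 and 0.00691), and -0.55 and -0.99 without the 4 arrays. Rab3a, a small GTPase that brings vesicles to the membrane, had levels of 9.67, 9.77 and 9.86 on the db/db arrays, against 10.18, 10.12 and 9.75 on db/+ 105, 404 and 407 and 12.28, 12.12, 11.51 and 11.80 on the other db/+ arrays. It was lower by 1.34 (limma adjusted p = 0.0281) against all db/+ arrays and its difference was -0.25 (adjusted p = 0.187) without the 4, and the first call was lost for 6 of the 13 arrays left out in turn. Rab3c behaved likewise (-2.22, limma adjusted p = 0.0404, and -0.36), and Rab3b, at 7.28 to 8.24 in db/db and 7.53 to 8.75 over all db/+ arrays, passed neither comparison. In all, 6 of the 7 measured members of this group were lower against all db/+ arrays (11.7% of all genes) and 2 of 7 without the 4 (6.78% of all genes).

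Among the synaptotagmins 5 of 6 measured members were lower against all db/+ arrays (11.7% of all genes), and Syt9 and Syt11 were lower without the 4 (6.78% of all genes). Syt9, a calcium sensor, had levels of 4.04, 5.10 and 5.74 on the db/db arrays, against 6.31, 6.99 and 6.20 on db/+ 105, 404 and 407 and 10.72, 10.38, 9.97 and 10.08 on db/+ 101, 103, 104 and 106. Every db/db array lay below every db/+ array. The difference was -3.67 (SE 0.80, limma adjusted p = 0.00597) against all db/+ arrays, -1.50 (SE 0.372, limma adjusted p = 0.0291) without the 4 arrays and -1.28 (limma adjusted p = 0.0855) in arrays 404 to 411. Syt11, a family member that does not bind calcium, had levels of 7.13, 7.69 and 7.94 on the db/db arrays, against 8.51, 8.24 and 8.21 on db/+ 105, 404 and 407 and 11.34, 11.03, 10.53 and 10.82 on the others, again without overlap. It differed by -2.17 (limma adjusted p = 0.0124), -0.68 (SE 0.182, limma adjusted p = 0.0396) and -0.49 (adjusted p = 0.117) in the same 3 comparisons. The calls of Syt9 and Syt11 without the 4 arrays were lost under 6 and 10 of the 17 other settings.

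Syt4, which sits on dense-core granules, showed the widest spread within db/db. Its levels were 5.92, 6.22 and 8.08 on the db/db arrays, against 8.74, 8.18 and 7.17 on db/+ 105, 404 and 407 and 11.86, 11.71, 11.33 and 11.38 on the others, and the value of 8.08 on db/db 111 lay above db/+ 407. Syt4 differed by -3.50 (limma adjusted p = 0.00687) against all db/+ arrays, by -1.48 (SE 0.504, limma adjusted p = 0.0868) without the 4 arrays and by -1.69 (limma adjusted p = 0.0362) in arrays 404 to 411. Syt1 and Syt2, the fast calcium sensors of transmitter release, were lower against all db/+ arrays by 0.52 and 0.69 (limma adjusted p = 0.0317 and 0.0434) and differed by -0.15 and -0.24 without the 4. Syt1 lay between 3.45 and 4.67 on all 13 arrays, near the bottom of the range of the table, and such low values were not separated from background because there are no detection calls. Syt5 passed neither comparison (-0.78 and 0.07).

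The vesicle membrane genes held 2 of the 3 members that were higher in db/db once the 4 arrays were left out. Syp encodes synaptophysin, an abundant membrane protein of small vesicles. It had levels of 9.80, 10.52 and 10.81 on the db/db arrays, against 8.65, 9.25 and 8.73 on db/+ 105, 404 and 407 and 11.98, 11.79, 11.18 and 11.32 on db/+ 101, 103, 104 and 106. The db/db arrays thus lay between the 2 sets of db/+ arrays and overlapped neither. The difference was -0.04 (SE 0.57, limma adjusted p = 0.972) against all db/+ arrays, but 1.501 (SE 0.238, 95% interval 0.97 to 2.03, limma adjusted p = 0.00447) without the 4 arrays, a 2.83-fold higher level, and 1.62 (limma adjusted p = 0.0192) in arrays 404 to 411. Its call held under all 17 other settings for the 9 arrays. Syn2, a synapsin that tethers vesicles, had levels of 7.23, 7.78 and 8.32 on the db/db arrays, against 6.79, 7.0 and 5.97 on db/+ 105, 404 and 407 and 9.40, 8.58, 8.20 and 8.43 on the others. Here db/db lay above the 3 arrays and overlapped the 4 through db/+ 104. The difference was 0.02 (limma adjusted p = 0.983) against all db/+ arrays, 1.20 (SE 0.282, limma adjusted p = 0.0236) without the 4 arrays and 1.59 (limma adjusted p = 0.0522) in arrays 404 to 411, and the call was lost there and without db/+ 407.

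Syp and Syn2 were also high on the 4 db/+ arrays left out, so their sign against db/+ depended on which db/+ arrays entered. Of the 8 vesicle membrane members, 3 were lower against all db/+ arrays (Sv2b, Slc17a6 and Slc17a7) and 0 were lower without the 4. Over all genes 11.7% and 6.78% were lower in these comparisons. Syn1, the other synapsin, was 6.45 to 8.36 in db/db, 7.01 to 7.29 on db/+ 105, 404 and 407 and 10.63 to 11.41 on the other db/+ arrays, and passed neither (-2.02, limma adjusted p = 0.0796, and 0.11). The vesicle glycoproteins Sv2a and Sv2c passed neither comparison. Sv2b had levels of 4.82, 5.66 and 6.47 on the db/db arrays, against 6.91, 6.83 and 5.74 on db/+ 105, 404 and 407 and 11.13, 10.57, 10.06 and 10.05 on the others. It was lower by 3.12 (limma adjusted p = 0.018) against all db/+ arrays and its difference was -0.85 (adjusted p = 0.164) without the 4.

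The glutamate transporters that fill vesicles showed a large step among the db/+ arrays. Slc17a6, which encodes VGLUT2, had levels of 3.38, 3.77 and 4.60 on the db/db arrays, against 4.62, 4.28 and 4.30 on db/+ 105, 404 and 407 and 11.31, 10.73, 10.03 and 10.05 on db/+ 101, 103, 104 and 106. The step separated 9 arrays from 4. Slc17a6 differed by -4.05 (SE 1.25, limma adjusted p = 0.0325) against all db/+ arrays, -0.55 (limma adjusted p = 0.201) without the 4 and -0.07 in arrays 404 to 411. Its call against all db/+ arrays was lost for 9 of the 13 arrays left out in turn. Slc17a7, which encodes VGLUT1, differed by -2.82 (limma adjusted p = 0.0233) and -0.59 (adjusted p = 0.126) in the first 2 of these comparisons.

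The SNARE proteins themselves showed no call without the 4 arrays. Snap25, a plasma membrane SNARE of neurons, lay at 8.06 to 9.68 in db/db, at 11.28, 8.71 and 7.68 on db/+ 105, 404 and 407 and at 13.33 to 13.56 on the other db/+ arrays. Its value on db/+ 105 stood apart from the other 2 arrays of its set. Vamp1, Vamp2 and Stx1a, a pair of vesicle SNAREs and a plasma membrane SNARE, were lower against all db/+ arrays by 1.60, 0.44 and 0.69 (limma adjusted p = 0.0272, 0.028 and 0.049) and differed by -0.33, -0.24 and -0.33 without the 4. Vamp3, the vesicle SNARE of most cells outside the nervous system, had levels of 12.16, 12.24 and 12.41 on the db/db arrays, against 12.36, 12.02 and 12.23 on db/+ 105, 404 and 407 and 11.97, 12.12, 12.17 and 12.18 on the others. The sets of arrays overlapped. Its difference was 0.11 (limma adjusted p = 0.338) and 0.06 (95% interval -0.19 to 0.30) in the 2 comparisons.

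Among the SNARE regulators Napb, which encodes beta-SNAP, an adaptor that lets used SNARE complexes be taken apart, was lower in both comparisons. Its levels were 5.24, 5.63 and 5.77 on the db/db arrays, against 6.21, 6.12 and 6.02 on db/+ 105, 404 and 407 and 10.53, 10.26, 9.44 and 9.44 on the others. The genotypes did not overlap. The difference was -2.74 (SE 0.78, limma adjusted p = 0.0231) against all db/+ arrays, -0.57 (SE 0.146, limma adjusted p = 0.0324) without the 4 and -0.35 (adjusted p = 0.107) in arrays 404 to 411, and the call without the 4 was lost under 6 of 17 other settings. Nsf, the ATPase that works with it, had levels of 9.22, 9.53 and 9.79 on the db/db arrays, against 9.09, 9.42 and 9.46 on db/+ 105, 404 and 407 and 10.63, 10.29, 9.95 and 10.08 on the others, and passed neither comparison (-0.32 and 0.21).

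The complexins, which clamp and then promote fusion, were lower against all db/+ arrays. Cplx1 had levels of 6.80, 7.18 and 7.52 on the db/db arrays, against 8.94, 7.98 and 6.73 on db/+ 105, 404 and 407 and 12.16, 11.80, 11.52 and 11.80 on the others. Here db/+ 407 lay below every db/db array. Cplx1 differed by -2.94 (SE 0.83, limma adjusted p = 0.0224) and, without the 4 arrays, by -0.69 (adjusted p = 0.286). Cplx2 did not overlap between genotypes and lay just outside the threshold without the 4 arrays, at -0.69 (SE 0.198, limma adjusted p = 0.0501), after -1.36 (adjusted p = 0.005) against all db/+ arrays. Stxbp5, or tomosyn, passed neither (-0.19 and 0.04).

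**Figure D4:**
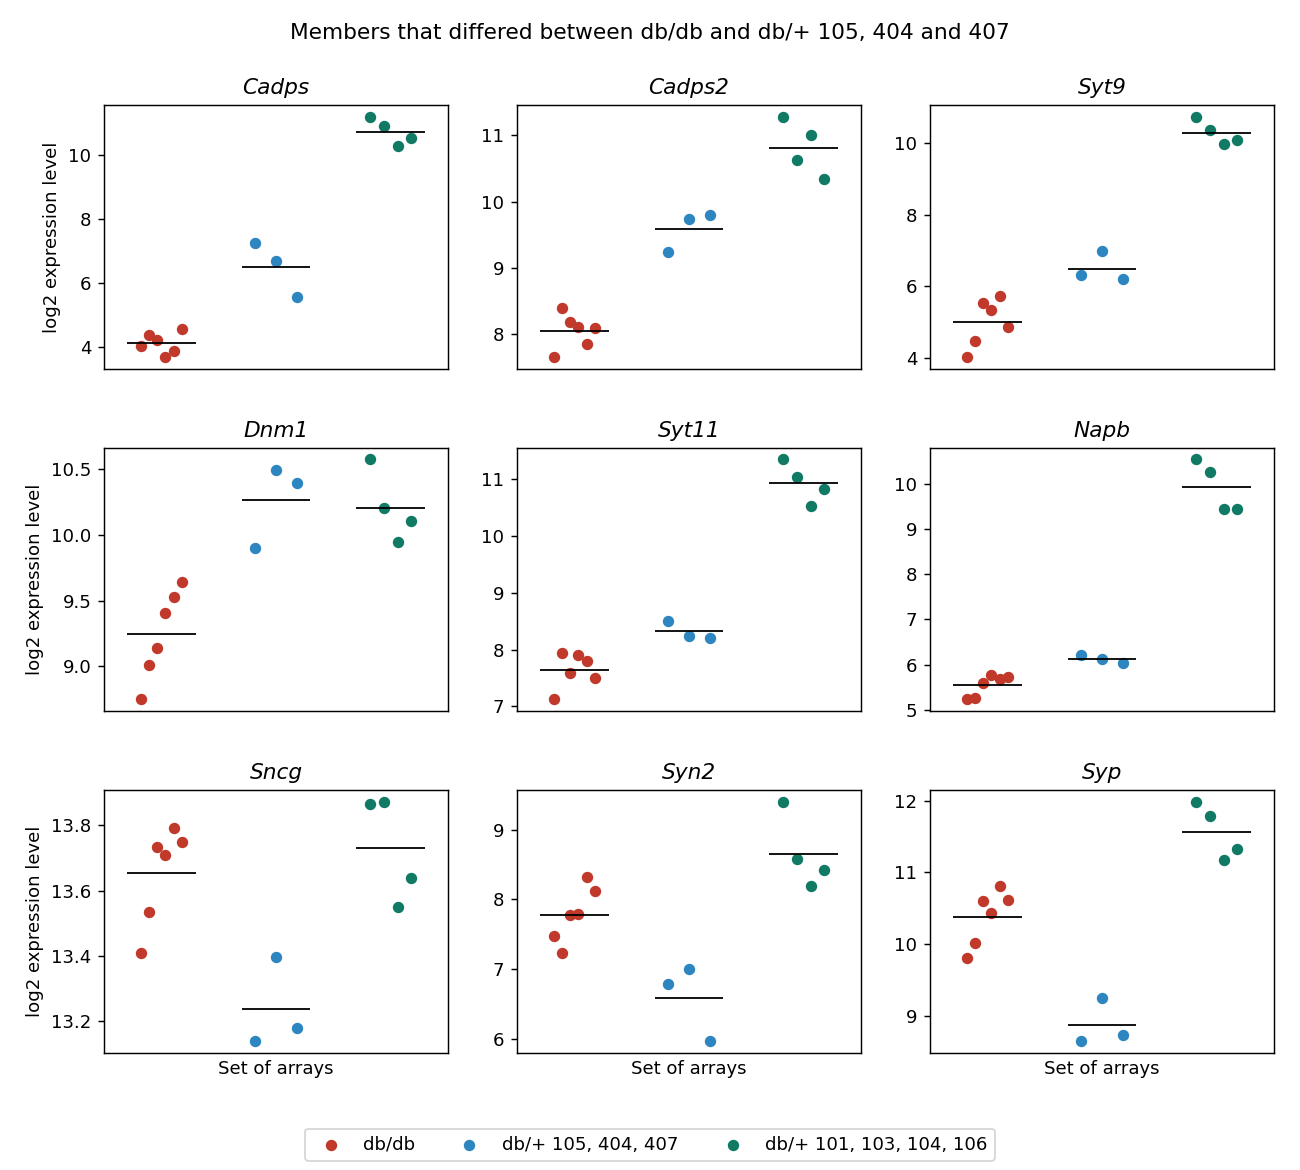
Log2 expression level (vertical axis, scaled for each gene and not starting at 0) of the 9 members that passed between db/db and db/+ 105, 404 and 407, with 1 point per array and a line at the mean of each set: db/db left, db/+ 105, 404 and 407 in the middle, db/+ 101, 103, 104 and 106 right. Cadps, Cadps2, Syt9, Dnm1, Syt11 and Napb are lower in db/db than in both db/+ sets, and Syp, Syn2 and Sncg are above the middle set but not above the right-hand one.

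The endocytosis genes retrieve vesicle membrane after fusion, and all 3 were lower against all db/+ arrays, as were 11.7% of all genes. Dnm1 encodes dynamin 1, the GTPase that pinches off endocytic vesicles, and among the 9 members called without the 4 arrays it was the one whose 2 sets of db/+ arrays overlapped. Its levels were 8.75, 9.27 and 9.64 on the db/db arrays, against 9.90, 10.50 and 10.40 on db/+ 105, 404 and 407 and 10.58, 10.21, 9.94 and 10.11 on db/+ 101, 103, 104 and 106. All db/db arrays lay below all db/+ arrays. The difference was nearly the same in each comparison, at -0.99 (SE 0.16, limma adjusted p = 0.00106) against all db/+ arrays, -1.02 (SE 0.217, limma adjusted p = 0.0158) without the 4 and -0.92 (limma adjusted p = 0.0203) in arrays 404 to 411, a 1.98-fold lower level in the first. The call without the 4 arrays was lost when db/+ 404 or db/+ 407 was also left out.

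Amph and Snap91 encode amphiphysin and the clathrin adaptor AP180. Amph had levels of 4.51, 5.05 and 5.53 on the db/db arrays, against 6.36, 6.61 and 5.26 on db/+ 105, 404 and 407 and 10.46, 9.70, 9.30 and 9.52 on the others. Snap91 had levels of 4.42, 5.31 and 5.89 on the db/db arrays, against 7.65, 6.62 and 5.83 on db/+ 105, 404 and 407 and 11.96, 11.64, 11.21 and 11.35 on the others. In both genes db/+ 407 lay within the db/db arrays. Amph differed by -3.09 (limma adjusted p = 0.0123) and Snap91 by -4.15 (SE 1.01, limma adjusted p = 0.0105) against all db/+ arrays. Without the 4 arrays they lay just outside the threshold, at -0.99 (adjusted p = 0.0661) and -1.38 (adjusted p = 0.0561).

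Of the synucleins, small proteins that bind vesicle membrane, Sncg was higher in db/db only when the 4 arrays were left out, and by a small amount. Its levels were 13.41, 13.72 and 13.79 on the db/db arrays, against 13.14, 13.40 and 13.18 on db/+ 105, 404 and 407 and 13.87, 13.87, 13.55 and 13.64 on the others. The db/db arrays lay above the 3 and overlapped the 4. The difference was 0.13 (limma adjusted p = 0.492) against all db/+ arrays and 0.42 (SE 0.117, limma adjusted p = 0.0465) without the 4, and that call was lost under 10 of 17 other settings. Sncg is also made in fat, whose markers had the highest mean levels on the db/db arrays, and the part of fat in this difference was not tested. Sncb passed neither comparison (-0.95 and 0.24).

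The dense-core granule cargo and processing genes had a median gap of 3.71 between the 2 sets of db/+ arrays and gave no call without the 4. Against all db/+ arrays 6 of 7 measured members were lower (11.7% of all genes), and without the 4 arrays 0 of 7 were (6.78% of all genes). In 2 of the 7, Scg3 and Cpe, every db/db array lay below every db/+ array, as in 3.51% of all genes. Scg2, or secretogranin II, had levels of 3.24, 4.16 and 4.42 on the db/db arrays, against 3.52, 4.02 and 4.02 on db/+ 105, 404 and 407 and 11.22, 11.24, 10.41 and 10.86 on db/+ 101, 103, 104 and 106. It lay in the lowest part of the range on 9 arrays, where db/db and the 3 db/+ arrays overlapped. Chgb, or chromogranin B, had levels of 5.61, 6.34 and 6.69 on the db/db arrays, against 7.31, 6.53 and 6.13 on db/+ 105, 404 and 407 and 12.09, 11.68, 11.39 and 11.34 on the others. Chgb differed by -3.31 (SE 1.02, limma adjusted p = 0.0325) against all db/+ arrays and by -0.46 (adjusted p = 0.361) without the 4, and the first call was lost for 10 of the 13 arrays left out in turn.

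Chga, Scg5 and Pcsk1, a chromogranin, the chaperone 7B2 and prohormone convertase 1, were lower against all db/+ arrays by 2.38, 2.48 and 1.93 (limma adjusted p = 0.0397, 0.0383 and 0.0483) and differed by -0.26, -0.24 and -0.13 without the 4. Scg3 differed by -1.79 (limma adjusted p = 0.0162) and -0.51 (adjusted p = 0.126). Cpe, the carboxypeptidase that trims peptide precursors, moved little. Its levels were 12.63, 12.85 and 12.89 on the db/db arrays, against 13.04, 13.04 and 12.94 on db/+ 105, 404 and 407 and 13.20, 13.08, 13.20 and 13.10 on the others. Cpe was lower by 0.28 (SE 0.073, limma adjusted p = 0.0148) against all db/+ arrays and its difference was -0.20 (adjusted p = 0.195) without the 4.

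The promoters of the granule genes are shown because Scg2 and Chgb had the widest and third-widest gaps among the db/+ arrays, and because the cyclic AMP response element TGACGTCA, the site of the CREB family, occurred in 3 of them. Windows are from RefSeq on GRCm38.p6, the 250 bases before each start, where 36 of the 43 measured members were listed. The element, which reads the same on both strands, was found in 4 of those 36 (Chgb, Pcsk1, Scg2 and Syn1) and in 1.77% of all 27025 genes listed. A second search looked for the arms CAGCACC and GGACAG of the element of the neuronal repressor REST, in this order, at most 10 bases apart, on either strand, and it was met in 1 member, Scg2, and in 0.0777% of genes. Each line gives 120 bases, 5' to 3' on the gene's strand, with the motifs in capitals.
Scg2, chr1:79440027-79440146, minus strand, bases -120 to -1, with the cyclic AMP element from base -68 and the REST arms from base -13: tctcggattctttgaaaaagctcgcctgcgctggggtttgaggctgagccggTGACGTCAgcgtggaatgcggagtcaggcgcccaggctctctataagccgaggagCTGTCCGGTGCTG
Chgb, chr2:132781522-132781641, plus strand, bases -120 to -1, with the element from base -72: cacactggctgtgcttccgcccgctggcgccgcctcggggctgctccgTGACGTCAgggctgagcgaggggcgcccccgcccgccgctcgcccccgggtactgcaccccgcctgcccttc
Pcsk1, chr13:75089737-75089856, plus strand, bases -120 to -1, with the element from base -78: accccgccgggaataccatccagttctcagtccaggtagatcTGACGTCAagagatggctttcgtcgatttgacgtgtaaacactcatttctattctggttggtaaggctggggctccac
Syn1, chrX:20921014-20921133, minus strand, bases -215 to -96, with the element from base -159: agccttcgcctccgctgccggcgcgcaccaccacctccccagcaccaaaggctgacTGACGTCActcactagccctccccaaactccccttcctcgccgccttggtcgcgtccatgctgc
In Scg2 the REST arms are read on the strand opposite to the one printed. All 4 genes were higher on the 4 db/+ arrays than on the 9 others, a pattern shared by 34 members. A match is a description of the letters and not a measured site.

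Further genes of the pathway were counted from 2 lists. Of 40 measured neuronal vesicle genes outside the members, 14 were lower and 1 was higher in db/db against all db/+ arrays, where 11.7% of all genes were lower and 13.4% higher. Without the 4 arrays 5 were lower and 2 higher, where 6.78% of all genes were lower and 6.12% higher, so the higher count was near the background. Sh3gl2, or endophilin A1, had levels of 4.99, 5.19 and 5.34 on the db/db arrays, against 6.12, 6.23 and 5.74 on db/+ 105, 404 and 407, and was lower there by 0.84 (limma adjusted p = 0.00505). Sh3gl3, its relative, was lower by 1.28 (limma adjusted p = 0.000774) against all db/+ arrays and by 0.995 (adjusted p = 0.0215) without the 4. Ppfia4 differed by -0.61 and -0.49 in the same comparisons (limma adjusted p = 0.00587 and 0.0369). Rims3 differed by -1.06 and -0.86 (limma adjusted p = 0.00676 and 0.0439). Its levels, from 2.98 to 5.001 on all arrays, lay near the bottom of the range of the table. Erc2, an active zone scaffold, and Slc18a1, a vesicular monoamine transporter, were higher without the 4 by 2.40 and 2.14 (limma adjusted p = 0.0121 and 0.0104). Erc2 lay at 6.90 to 8.14 in db/db, at 6.57, 4.90 and 3.98 on db/+ 105, 404 and 407 and at 11.08, 10.61, 10.39 and 10.07 on the other db/+ arrays, the same order as Syp and Syn2.

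Of the 43 measured exocytosis genes that most cells use, 2 were lower and 9 higher in db/db against all db/+ arrays, beside 11.7% and 13.4% of all genes. Without the 4 arrays 1 was lower and 2 were higher, both shares below those over all genes (6.78% and 6.12%). Exoc6, a subunit of the exocyst that tethers vesicles, had levels of 9.65, 9.95 and 10.19 on the db/db arrays, against 8.80, 8.76 and 8.87 on db/+ 105, 404 and 407 and 8.97, 8.97, 8.71 and 8.88 on the others. It was higher by 1.09 (limma adjusted p = 1.31e-05) against all db/+ arrays and by 1.13 (adjusted p = 0.00115) without the 4. Exoc3, another subunit, was lower by 0.38 and 0.45 in the same comparisons (limma adjusted p = 0.00387 and 0.0225), and Stxbp3, which binds syntaxins outside neurons, was higher by 0.53 and 0.50 (limma adjusted p = 0.00483 and 0.0475).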

How the data were processed

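Amplified, biotin-labelled RNA of sciatic nerve from 24-week BKS db/db and db/+ mice was put on 1-colour arrays, per the labels. The authors deposited log2 expression levels from RMA, according to the submitters' processing notes, and these were analysed unchanged. RMA brings the arrays to a common distribution and compresses folds of dim genes. The version of RMA, the platform name and how probe sets were defined were not given in the sources used here. With no detection calls, dim levels cannot be told from background. From 15479 probe sets 42 Affymetrix controls were left out. Symbols came from the platform annotation (14801 probe sets with 1 symbol, 636 with none), with 1 probe set per gene.

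Genotype was tested for all 15437 genes by a two-sided linear model (limma 3.58.1, R 4.3.3, lmFit then eBayes), adjusted over all of them by Benjamini-Hochberg with a threshold of 0.05, on 13 arrays and, without db/+ 101, 103, 104 and 106, on 9 arrays. The fit was tested on simulated data with the spread of the 9 arrays. Those data hold no step among the db/+ arrays, so they do not show how the fit on 13 arrays handles it. Members given on every array were those called on the 9 arrays, the 10 with the largest difference on 13 arrays, those whose sign turned in a number series with a call there, and 1 per functional group, 21 in all. Members, lists and tests were chosen with earlier results of these data known. Alternatives were moderation, renewed normalization, centring, a filter on dim genes, weights, the number series, an exact rank-sum test, a size threshold and leaving out each array. Motifs were searched in RefSeq promoter windows with Python 3.11.15 and pandas 2.3.3.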

Additional observations from a re-analysis of the deposited data

Results flagged for a closer look

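Of 86 groups of arrays tested, 43 members in db/db and in db/+, 1 held a value far from the others by Dixon's criterion, which chance alone meets in about 1 of 20 groups. All db/+ arrays were tested as 1 group, and in most members they formed 2 sets. A far value was harder to flag there, and that rate need not hold. The flagged value was Stx1a on db/db 112, at 7.02, while the nearest of the other 5 db/db arrays was at 7.78.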

How the results depend on the processing

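No paired analysis was possible because the genotypes share no replicate numbers. Against all db/+ arrays the 29 calls became 5 in arrays 404 to 411 and 17 by an exact rank-sum test (3119 genes called), and 16 to 33 when 1 array was left out. The other settings gave 23 to 38 calls, and array weights called 6525 genes and a size threshold of 1 called 1217. The median difference over the members was -0.15 in arrays 404 to 411. Without the 4 arrays the 9 calls became 5 in arrays 404 to 411 and 4 to 9 when 1 array was left out, and the other settings gave 6 to 11, over all genes 680 with the size threshold and 2987 with the number series as a block. Fewer arrays enter the reduced fits; for the other changes the cause was not tested. Among the members given on every array, signs turned against all db/+ arrays for Syp (0.0133 by median centring, 0.12 with the block, 1.62 in arrays 404 to 411, -0.33 to 0.23 when 1 array was left out), Syn2 (-0.33 with array weights, -0.79 in arrays 101 to 112, -0.28 to 0.29 when 1 was left out), Sncg (-0.0545 in arrays 101 to 112), and in arrays 404 to 411 for Scg2 (0.225), Chgb (0.13, also against the 9-array value) and Nsf (0.16). Among the other members, Snap25 (0.40), Stxbp5 (0.07), Syt2 (0.09), Syt5 (0.19), Rab3c (0.05) and Sncb (0.35) were also positive in arrays 404 to 411 after a negative value against all db/+ arrays. Without the 4 arrays, leaving out 1 more gave -0.009 to 0.31 for Scg2 and -0.0333 to 0.13 for Vamp3. Of 815 single-gene values, 705 kept direction and side of the threshold. The number of arrays limits the precision, and 9 members lay among the dimmest 25% of genes.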

Other observations

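Levels on db/+ 105, 404 and 407 differed from each other in some neuronal transcripts, chosen here after their values were seen. Snap25 stood at 11.28 on db/+ 105 against 8.71 and 7.68 on the other 2, and the neurofilament gene Nefl was 7.65 to 9.34 on the db/db arrays, 8.04 to 12.03 on these 3 db/+ arrays and 13.48 to 13.81 on db/+ 101, 103, 104 and 106.

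The db/db arrays differed by number series in some members, such as Slc17a6 and Rab3c. Slc17a6 was 3.38, 3.45 and 3.63 on db/db 110, 111 and 112, and 3.92, 4.15 and 4.60 on db/db 409, 410 and 411. Rab3c was 3.62, 3.73 and 3.67 on the first 3 and 4.34, 4.39 and 4.51 on the others. Both genes were chosen after their values were seen. Their levels here lay near the bottom of the range, where they cannot be told from background. Pcsk1, Vamp1, Vamp2, Dnm1 and Napb were also higher on each of db/db 409, 410 and 411 than on db/db 110, 111 and 112. So were Syt2, Syt5, Rims2, Syn2, Scg3 and Slc17a7. Vamp3, Syt4, Snap25 and Stxbp5 were lower on each of db/db 409, 410 and 411. The share of such genes over all genes was not counted, so these names are a description only.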
